A study of Mus musculus with 28 samples.

Results

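The AP-1 factors of the FOS and JUN families and their relative ATF3 were followed in mouse calf muscle. The set was defined by gene symbol and comprised Fos, Fosb, Fosl1, Fosl2, Jun, Junb, Jund and Atf3. Of these 8 genes, 7 were named for a probe in the array annotation, each for 1 probe, and all 7 probes were brighter than an intensity of 24 on at least 7 of 28 arrays, the limit for being tested. They are 7 of the 8389 genes that passed that limit. No probe was named for Fosl2 in the annotation used here, so it is not analysed.

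RNA came from the whole gastrocnemius, plantaris and soleus complex of 4-month-old female mice on an FVB background, with 1 Illumina bead array per sample. The 4 groups of 7 were wild-type muscle at rest, wild-type muscle taken directly after 15 min of contraction evoked in situ through the sciatic nerve, and the same resting and contracted states in mice lacking LKB1 in skeletal muscle. LKB1 is the upstream activating kinase of AMPK and its relatives, and Stk11 is its gene. The sources used here do not name the promoter that drove the deletion, and the dissected muscle also holds cells outside the fibres, which a muscle-specific deletion spares. Samples carry the numbers 1 to 7 in each group, but no label tells whether a shared number means a shared animal, and the p-values reflect only how far these samples spread.

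AP-1 is a dimer of basic leucine zipper proteins. FOS proteins cannot pair with each other and bind DNA as partners of a JUN protein, whereas JUN proteins also pair among themselves, and ATF3 joins either family or represses as a pair of its own. Fos, Fosb, Junb and Atf3 are immediate-early genes whose transcription starts within minutes of calcium, MAP kinase or stress signals, and contraction is a known stimulus for them in muscle. Their transcripts are short-lived.

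The promoters of the members whose values the results turn on are shown as the 250 bases upstream of the RefSeq gene start in build GRCm38.p6, written 5′ to 3′ on the strand of the gene. Fos (chr12:85473640-85473889, plus strand), Junb (chr8:84978749-84978998, minus strand) and Atf3 (chr1:191183334-191183583, minus strand) were high in contracted knockout muscle, and Jun (chr4:95052223-95052472, minus strand) was not. Capitals mark TGACG, the core of the cyclic AMP response element, or its reverse complement CGTCA, and in Jun they mark TGACATCA, the AP-1-like site for which that promoter is known.
Fos: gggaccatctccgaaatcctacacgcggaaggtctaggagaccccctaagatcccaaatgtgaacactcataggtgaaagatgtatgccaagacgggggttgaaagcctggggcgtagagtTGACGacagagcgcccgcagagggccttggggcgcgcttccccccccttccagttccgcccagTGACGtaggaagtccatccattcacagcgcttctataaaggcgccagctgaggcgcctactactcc
Junb: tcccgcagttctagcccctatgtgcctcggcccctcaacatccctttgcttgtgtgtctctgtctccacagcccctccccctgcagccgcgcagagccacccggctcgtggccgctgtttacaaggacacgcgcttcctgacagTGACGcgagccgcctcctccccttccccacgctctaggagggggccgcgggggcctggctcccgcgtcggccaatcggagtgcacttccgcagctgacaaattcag
Atf3: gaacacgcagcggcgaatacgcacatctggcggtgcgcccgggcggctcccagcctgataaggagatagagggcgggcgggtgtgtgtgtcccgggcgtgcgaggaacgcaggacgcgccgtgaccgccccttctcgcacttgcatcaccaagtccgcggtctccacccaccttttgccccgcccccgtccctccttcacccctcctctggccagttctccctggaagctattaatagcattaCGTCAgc
Jun: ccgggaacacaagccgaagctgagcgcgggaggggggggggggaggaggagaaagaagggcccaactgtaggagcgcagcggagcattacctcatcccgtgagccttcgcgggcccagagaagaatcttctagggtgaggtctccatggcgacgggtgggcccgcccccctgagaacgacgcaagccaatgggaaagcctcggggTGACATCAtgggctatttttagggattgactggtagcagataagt
Of the 7 members with a promoter in the table (Fosl1 was not in it), 4 held TGACG on either strand, against 17.8% of 32851 promoters of the same length. In Fos it began 129 and 66 bases before the start, in Junb 106 and in Atf3 7 bases before it. The Fosb window (chr7:19310046-19310295, minus strand) overlaps the RefSeq gene, whose 5′ end is at 19310118. The TGACG of Fosb began 60 bases before the end of that window and thus lies inside the annotated gene, not upstream of it. TGACATCA began 45 bases before the start of Jun and was held by 2.93% of all promoters. The longer TGACGT, which contains TGACG, was held by 2 of the 7, Fos and Atf3, against 6.47% of all promoters. The full element TGACGTCA was held by 1.55% of promoters, the AP-1 site TGANTCA by 6.75% and the CArG box of serum response factor by 1.47%, and each by 0 of the 7. Only these 250 bases were searched, so a member without a match may still hold the motif farther upstream. The motifs were chosen after the sequences had been seen, both strands were searched, and a match is a description of letters, not of binding.

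Stk11 checked the labels. Its intensity was between 1018 and 1514 on the 14 wild-type arrays and between 300.7 and 562.8 on the 14 knockout arrays, with no overlap in either state. Its log2 difference between knockout and wild type was -1.36 at rest (SE 0.12, limma adjusted p = 1.08e-07) and -1.48 after contraction (SE 0.12, limma adjusted p = 1.68e-08). The sources used here do not place its probe inside or outside the deleted exons. All 10 skeletal muscle markers were measured, and their summed intensity lay between 264826 and 349297 on every array. Summed adipocyte markers (6 of 9 measured) ran from 241 to 9182, macrophage markers (9 of 13 measured) from 3316 to 23663 and lymphocyte markers (6 of 12 measured) from 14 to 4581, so the amount of non-muscle RNA differed between arrays of the same group. In tissue RNA, fewer cells of a type and less RNA per cell cannot be told apart.

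Fos, the founding member of the family, was dim in resting wild-type muscle. Its intensity there was 0.685 at the lowest, 13.5 at the median and 102.1 at the highest, and 2 of 7 arrays exceeded 24. In contracted wild-type muscle the same values were 12.2, 58.8 and 276.7, and in resting knockout muscle 48.5, 69.4 and 353.5. In contracted knockout muscle they were 74.7, 645.6 and 2324. All 14 knockout arrays exceeded 24, against 2 resting and 4 contracted wild-type arrays, and the contracted knockout group overlapped each other group through its lower arrays. The spread also differed, with a log2 SD of 0.44 in resting wild type, 0.72 in contracted wild type, 0.64 in resting knockout and 1.51 in contracted knockout (n = 7 each).

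Fosb, which encodes a FOS protein made in long and truncated forms, was below the limit on nearly every array outside a single group. Its intensity was -9.04, -1.39 and 9.42 (lowest, median and highest) in resting wild type, -6.58, 4.21 and 69.4 in contracted wild type and 3.39, 5.93 and 18.3 in resting knockout. In contracted knockout it was -7.83, 81.2 and 138.6. Of the 7 arrays over 24, 6 were contracted knockout and 1 contracted wild type, so Fosb was tested at all only because it was bright in that group, and its call is given as a value and not as support for the others. Fosl1, which encodes FRA1, stayed near the limit, with medians of 18.1 and 22.0 in wild type at rest and after contraction and of 19.2 and 30.0 in knockout at rest and after contraction. Its highest array was at 44.2 and its groups overlapped. It exceeded 24 on 4 contracted knockout arrays and on 2 arrays of each other group, so Fosl1 too was tested only because of contracted knockout.

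Junb, the JUN protein best known for restraining Jun and for maintaining muscle mass in mice, was bright on all 28 arrays. Its intensity was 226.4, 418.4 and 3473 in resting wild type, 432.6, 866.3 and 2712 in contracted wild type, 624.9, 1099 and 2265 in resting knockout and 656.5, 4270 and 6688 in contracted knockout. Resting wild-type sample 1, at 3473, was higher than every resting knockout array, and the groups overlapped in each comparison. Jund, a JUN protein usually present before stimulation, had medians of 47.2, 88.6, 81.9 and 201.0 in the same order, with a range over all arrays from -0.0583 to 374.0. Jun itself lay between 265.2 and 742.9 on every array. Its medians were 587.0, 430.0, 483.3 and 341.8 in the same order, so its lowest median was in the group where the medians of the other 6 members were highest.

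Atf3, a stress-induced repressor and activator, had intensities of 27.4, 45.1 and 133.0 in resting wild type, 53.4, 113.4 and 258.4 in contracted wild type, 86.8, 180.8 and 433.5 in resting knockout and 100.8, 480.6 and 1061 in contracted knockout. Its 4 medians rank from wild type at rest through contracted wild type and knockout at rest to contracted knockout, as those of Fos and Junb do. The neighbours in that order overlapped for all 3 genes.

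**Figure D1:**
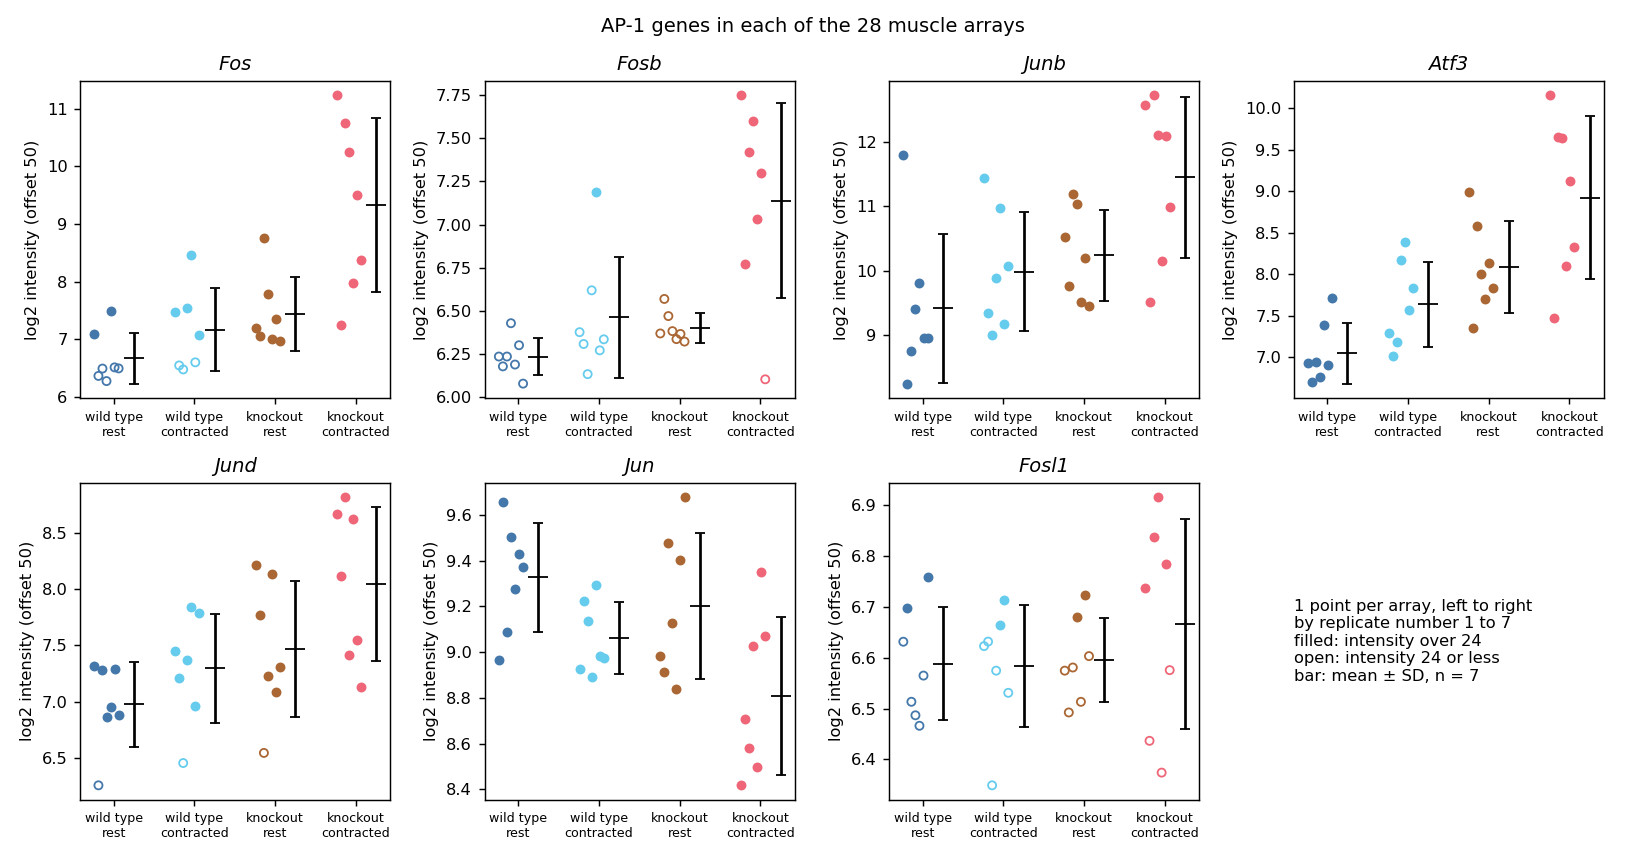
Log2 intensity (normexp-corrected, offset 50) of the 7 measured AP-1 genes on each of the 28 arrays, 1 point per array, filled where the intensity exceeded 24, with bars for the mean ± SD of 7 arrays. Fos, Fosb, Junb, Atf3 and Jund have their highest mean in contracted knockout muscle, Jun has its lowest there, and all groups overlap.

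The comparison of contracted muscle between genotypes asked whether the factors were at different levels once both muscles had worked. Fos, Atf3 and Fosb were higher in contracted knockout muscle than in contracted wild-type muscle. Mean log2 Fos was 9.33 ± 1.51 in knockout and 7.17 ± 0.72 in wild type (SD, n = 7 each), a difference of 2.16 (SE 0.46) or 4.48-fold with limma adjusted p = 0.00477. Mean log2 Atf3 was 8.92 ± 0.98 and 7.64 ± 0.52 (SD, n = 7 each), a difference of 1.29 (SE 0.32) or 2.44-fold with limma adjusted p = 0.0137. The groups nevertheless overlapped, since contracted knockout samples 2, 5 and 7 were below the highest contracted wild-type array for both genes.

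Fosb differed by 0.68 (SE 0.18, limma adjusted p = 0.0159). Junb differed by 1.47 (SE 0.52), or 2.76-fold, and missed the threshold with limma adjusted p = 0.0716, and Jund differed by 0.75 (SE 0.28) with limma adjusted p = 0.0826. Jun was at -0.25 (SE 0.14, limma adjusted p = 0.264) and Fosl1 at 0.08 (SE 0.08, limma adjusted p = 0.551). Among the members other than Fosb and Fosl1, Fos and Atf3 were called, both higher, beside 8.87% of all genes called and 4.54% called higher. Fosb and Fosl1 are left out there, because both reached the limit for being tested only with the contracted knockout arrays. For 0 of the 7 the groups did not overlap, against 1.16% of all genes. The median difference of all genes was -0.01. Fold changes are on a log2 scale after an offset of 50 was added, which understates changes of dim genes such as Fos in wild type.

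The exact two-sided permutation test over the 7 and 7 arrays, without adjustment over genes, gave p = 0.00641 for Fos, 0.0128 for Atf3, 0.0245 for Fosb, 0.0315 for Junb and 0.039 for Jund. When limma was fitted to the contracted arrays alone, Fos was still called (adjusted p = 0.036), but Atf3 (adjusted p = 0.0501) and Fosb (adjusted p = 0.086) were not. Leaving out contracted knockout sample 7 added Junb (limma adjusted p = 0.0453) and Jund (0.022), in a setting in which 1702 of 8389 genes were called against 744 with all arrays. Junb also passed in limma without resting wild-type sample 1 (adjusted p = 0.0429), contracted wild-type sample 1 (0.0489), contracted knockout sample 2 (0.0267) or contracted knockout sample 5 (0.0469). With the replicate number as a random block Junb passed as well (limma adjusted p = 0.043), beside 10.1% of all genes. Without the 9 arrays with summed lymphocyte markers over 400, Fosb was not called (limma adjusted p = 0.125), whereas Fos (0.00261) and Atf3 (0.00395) were. Without the 3 arrays with summed slow-fibre markers under 60000, limma's adjusted p was 0.0199 for Fos, 0.0361 for Atf3 and 0.0497 for Fosb. Over all settings other than leaving out single arrays, limma's adjusted p lay between 4.66e-06 and 0.036 for Fos, 8.12e-06 and 0.0501 for Atf3, 9.05e-06 and 0.125 for Fosb and 0.00421 and 0.149 for Junb.

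**Figure D2:**
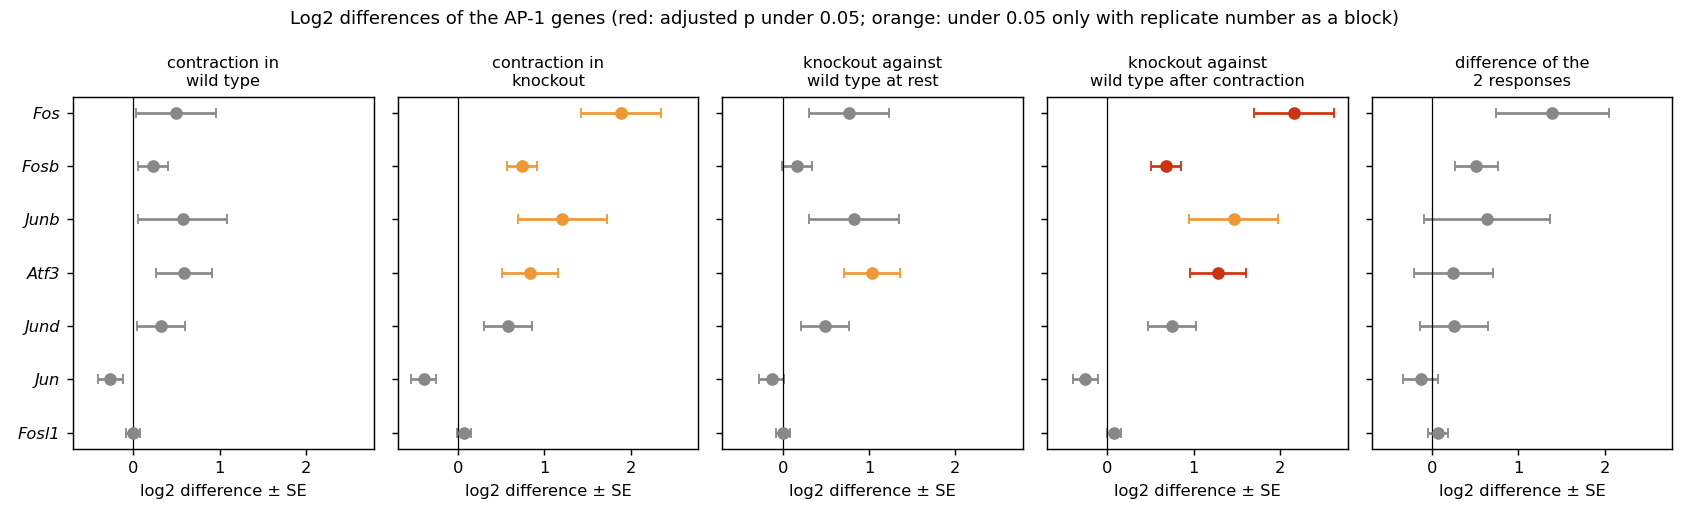
Log2 difference of each AP-1 gene with its SE in the 5 comparisons, from limma on 28 arrays; red points have an adjusted p under 0.05 and orange points only when the replicate number is a block. Fos at 2.16, Atf3 at 1.29 and Fosb at 0.68 are the 3 red points, all in the comparison of contracted muscle.

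In resting muscle, the comparison of genotypes asked whether the factors already differed before stimulation. None of the 7 members was called, against 3.75% of all genes, and for none did the groups lie apart, against 0.954%. Atf3 came nearest, with mean log2 values of 8.09 ± 0.55 in knockout and 7.05 ± 0.37 in wild type (SD, n = 7 each), a difference of 1.04 (SE 0.32) with limma adjusted p = 0.0676. Only the 2 lowest resting knockout arrays lay among the resting wild-type values. The exact two-sided permutation test gave an unadjusted p = 0.00291 for it.

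This Atf3 difference was close enough to the threshold for single arrays to decide it. It passed in limma without resting knockout sample 7 (adjusted p = 0.0495), contracted knockout sample 1 (0.0487) or contracted knockout sample 2 (0.0406), and with the replicate number as a random block (adjusted p = 0.0415, where 4.82% of all genes were called). Over all settings other than leaving out single arrays its limma adjusted p lay between 0.00775 and 0.121. Fos differed by 0.77 (SE 0.46, limma adjusted p = 0.329, exact permutation p = 0.0134 unadjusted) and Junb by 0.83 (SE 0.52, limma adjusted p = 0.352). Jund differed by 0.49 (SE 0.28, limma adjusted p = 0.299), Fosb by 0.17 (SE 0.18, limma adjusted p = 0.598) and Jun by -0.12 (SE 0.14, limma adjusted p = 0.641), and Fosl1 was at 0.01 (SE 0.08). For Fosb, no resting array of either genotype exceeded 24, so that value compares signals below the limit.

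Contraction within wild-type muscle asked what 15 min of work did to the factors with LKB1 present. None of the 7 members was called, and neither was any other gene, 0% of 8389 in limma, with 89 genes (1.06%) at an unadjusted p under 0.05. The groups overlapped for every member, and they did not for 0.0358% of all genes. Atf3 differed by 0.59 (SE 0.32), Junb by 0.57 (SE 0.52), Fos by 0.49 (SE 0.46), Jund by 0.32 (SE 0.28) and Fosb by 0.23 (SE 0.18), and Jun by -0.27 (SE 0.14), all with limma adjusted p = 0.9999. Fosl1 was at -0.0045 (SE 0.08). At equal replicate number the contracted sample was above the resting one for Atf3 in 7 of 7 pairs, for Fos and Junb in 6 of 7 and for Fosb and Jund in 5 of 7, and below it for Jun in 5 of 7. These pairs carry no test, because only 5 of the 7 wild-type pairs met the pairing criterion of a correlation over 0.1.

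The same question was asked of knockout muscle, which worked without LKB1 in its fibres. Fos differed by 1.89 (SE 0.46), or 3.70-fold, Junb by 1.21 (SE 0.52), Atf3 by 0.84 (SE 0.32), Fosb by 0.74 (SE 0.18) and Jund by 0.58 (SE 0.28), and Jun by -0.40 (SE 0.14). Without the replicate number in the fit none of the 7 was called, with limma adjusted p = 0.303 for Fos and 0.29 for Fosb, and 1 gene in all, 0.0119%, was called. There were 170 genes (2.03%) at an unadjusted p under 0.05 in limma, and the groups overlapped for every gene (0% did not). Without contracted knockout sample 2 Fos was called (limma adjusted p = 0.027), and without contracted knockout sample 7 Fosb was (limma adjusted p = 0.00277). Over all other settings limma's adjusted p for Fos lay between 0.00146 and 0.9999.

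All 7 knockout pairs met the pairing criterion, with correlations of 0.374 to 0.849. Unequal numbers were not correlated for reference, so a shared animal is not shown, and the paired values below hold only if the number is a pair. With the number as a block Fos, Junb and Atf3 were called higher on contraction, among the members other than Fosb and Fosl1. That fit takes a single spread from the pairs of both genotypes, including wild-type pairs that missed the criterion. The SD of the log2 pair differences was wider in knockout than in wild type for Fos (1.23 and 0.48), Junb (0.80 and 0.58) and Atf3 (0.525 and 0.463). The SEs below are therefore not those of knockout pairs alone. Limma's adjusted p was 0.0118 for Fos (SE 0.30), 0.0236 for Junb (SE 0.23) and 0.0297 for Atf3 (SE 0.17), where 0.679% of all genes were called and 0.632% called higher. Fosb, which reached the limit through the contracted group, was called as well (SE 0.16, limma adjusted p = 0.0426). Jun (adjusted p = 0.15) and Jund (0.815) were not called. Because no resting knockout array had Fosb over 24, its change is better given as a bound, at least 1.40-fold when the dim group is set at the lowest level that counts as above the limit.

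Pair by pair, Fos was higher in the contracted knockout muscle in 7 of 7 pairs, by 0.19 to 4.04 on the log2 scale with a median of 2.01. Atf3 was higher in 7 of 7, by 0.12 to 1.64, and Jun was lower in 7 of 7, by between -0.90 and -0.05. Each of these 3 reached p = 0.0156, the smallest that the exact two-sided sign-flip permutation test allows with 7 pairs, before any adjustment over genes. Junb (median 1.53, exact p = 0.0312), Jund (median 0.45, exact p = 0.0312) and Fosb (median 0.94, exact p = 0.0469) were higher in 6 of 7 pairs, and Fosl1 in 4 of 7 (exact p = 0.25). Pair 2 had the smallest rise of Fos and Atf3 and was the pair in which Junb was lower after contraction.

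**Figure D3:**
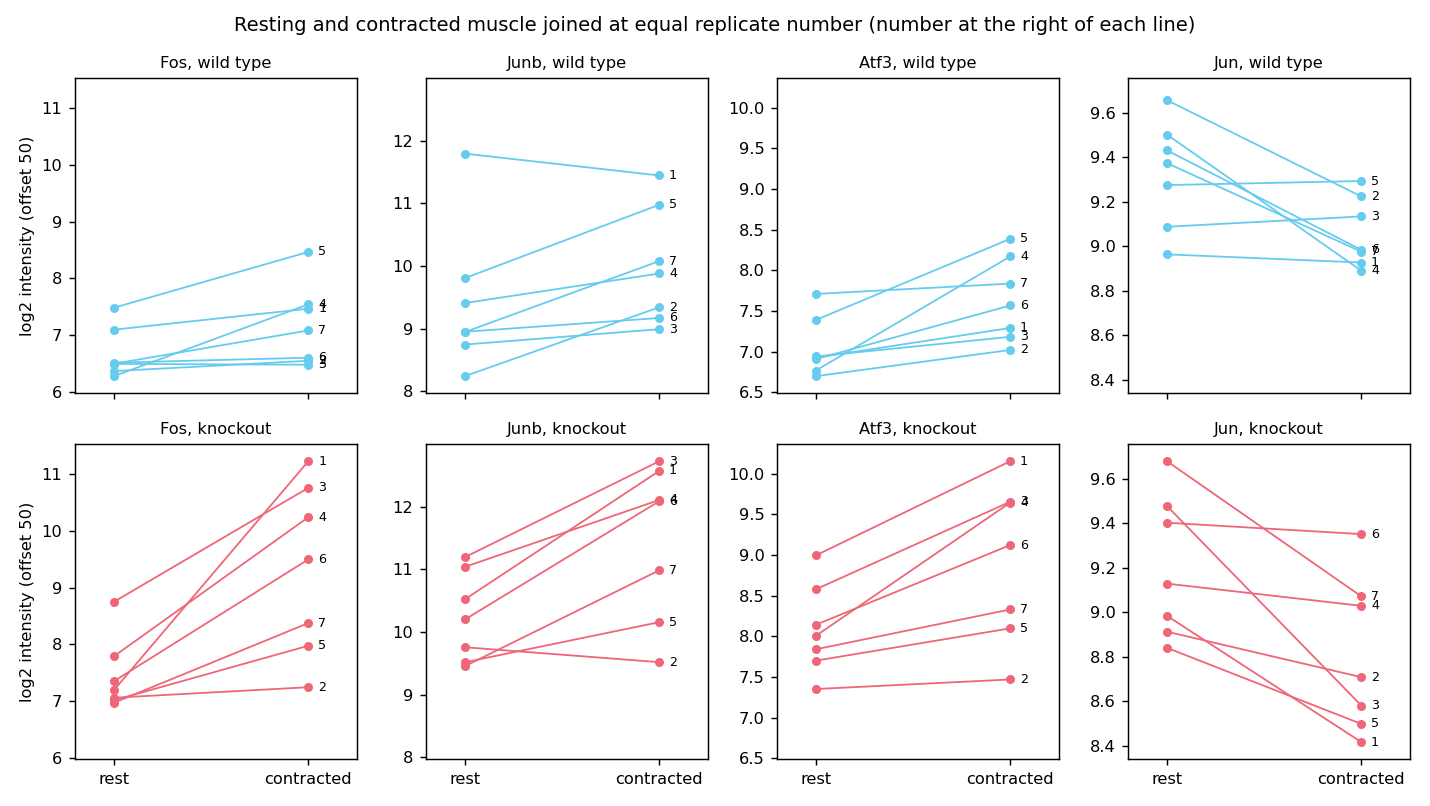
Log2 intensity (offset 50) of Fos, Junb, Atf3 and Jun at rest and after contraction, joined at equal replicate number, with wild type above and knockout below. In knockout all 7 lines rise for Fos and Atf3, 6 of 7 rise for Junb and all 7 fall for Jun.

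Whether the response to contraction itself differed between genotypes was asked by the difference of the contraction responses. None of the 7 members was called, and 0% of 8389 genes were in limma, with 52 (0.62%) at an unadjusted p under 0.05. Fos had the largest value of the 7, a log2 response greater by 1.39 in knockout (SE 0.65, limma adjusted p = 1). Fosb was at 0.51 (SE 0.25), Junb at 0.64 (SE 0.73), Jund at 0.26 (SE 0.39) and Atf3 at 0.25 (SE 0.46). Jun was at -0.13 (SE 0.20) and Fosl1 at 0.07 (SE 0.12). Before adjustment limma's p for Fos was 0.0417. An exact two-sided permutation test of the differences at equal number gave an unadjusted p = 0.0128 for Fos and 0.0717 to 0.55 for the other members. That test uses the wild-type pairs, of which only 5 of 7 met the pairing criterion. So a greater response in knockout was not established for any member after adjustment, although the levels of Fos, Atf3 and Fosb after contraction differed.

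Fos, Atf3 and Junb varied together within groups after contraction. Deviations from the group mean were compared over the 14 contracted and the 14 resting arrays, with 12 relations to Fos in all, permuted within groups and adjusted over the 12. After contraction Fos followed Atf3 (Pearson r = 0.954, Spearman rho = 0.952, permutation adjusted p = 0.00012 and 0.00024) and Junb (r = 0.905, rho = 0.877, permutation adjusted p = 0.00024 and 0.0008). The values for Fosb (r = 0.80, rho = 0.886, permutation adjusted p = 0.0076 and 0.00024) and Fosl1 (r = 0.737, rho = 0.723, permutation adjusted p = 0.035 and 0.043) rest in part on signals below the limit. For these 2 genes 1 and 2 of the 7 contracted wild-type arrays exceeded 24, and 6 and 4 of the 7 contracted knockout arrays. Both were tested only because of contracted knockout, and they are no support for the others. The relations of Fos to Jund (r = 0.373, rho = 0.429) and Jun (r = -0.0794, rho = -0.178) did not pass, with permutation adjusted p for r of 0.383 and 0.951.

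At rest Fos followed Junb (r = 0.676, rho = 0.776, permutation adjusted p = 0.0157 and 0.00738) and, of the 6 relations, only that one passed. Its r with Atf3 at rest was 0.426 (rho = 0.635, permutation adjusted p = 0.30 and 0.054). Leaving out the 2 arrays with Fos farthest from its median left r at 0.912 for Atf3 and 0.87 for Junb after contraction and at 0.833 for Junb at rest. Within contracted wild type and contracted knockout apart, r was 0.803 and 0.993 for Atf3 and 0.802 and 0.965 for Junb. The resting and contracted relations were not tested against each other.

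**Figure D4:**
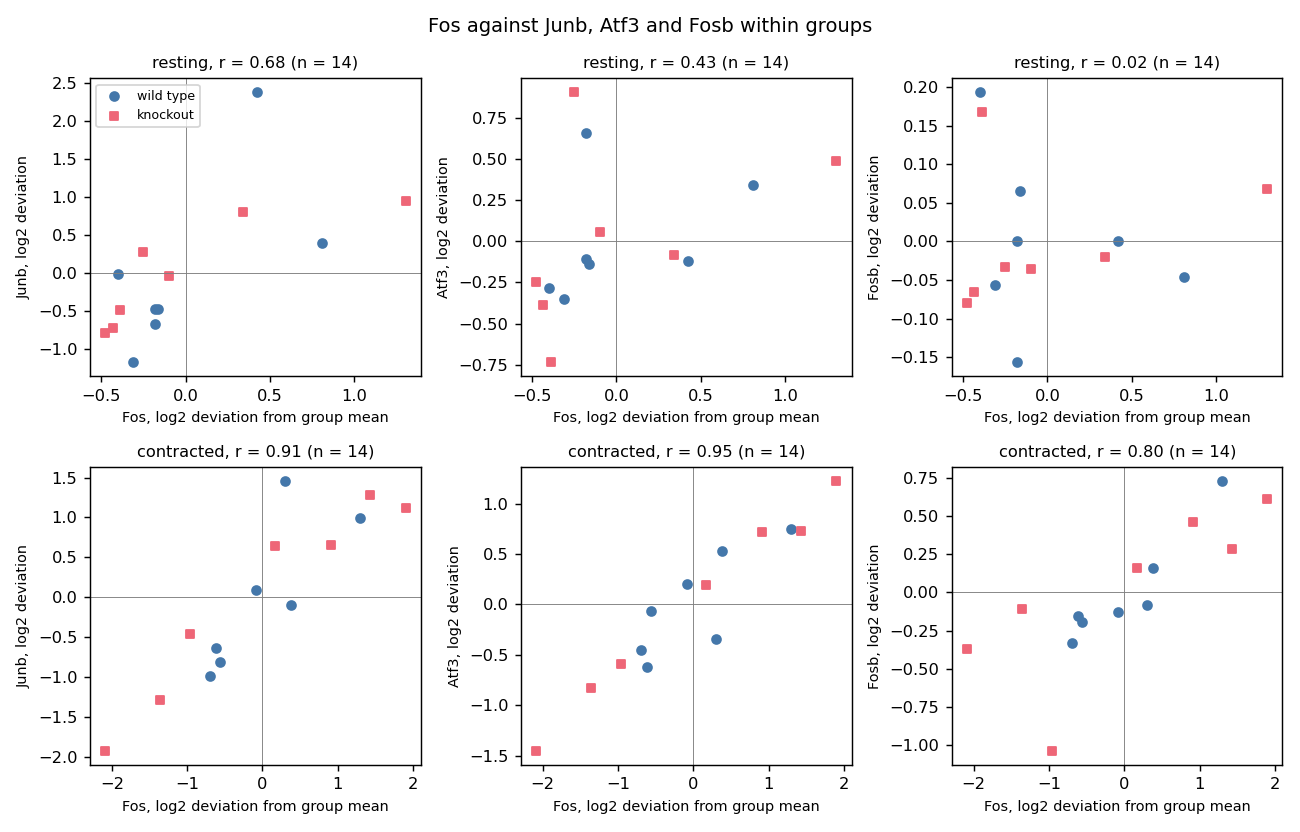
Log2 deviation from the group mean of Junb, Atf3 and Fosb against that of Fos, with 14 resting arrays above and 14 contracted arrays below. After contraction r is 0.91 for Junb, 0.95 for Atf3 and 0.80 for Fosb, and at rest it is 0.68, 0.43 and 0.02; most Fosb values outside contracted knockout are below the limit.

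The contracted knockout arrays split widely in the members that varied together. In samples 1 to 7 Fos was at 2324, 74.7, 1656, 1134, 174.7, 645.6 and 255.0, and Junb at 6005, 656.5, 6688, 4331, 1065, 4270 and 1949. Samples 2, 5 and 7 were the lowest for both genes and for Atf3. They also had the lowest array weights of the group, 0.507, 0.371 and 0.374, against 1.35 to 2.06 in the other 4. Array weights, used in 1 alternative fit, count arrays less that lie farther from their group means over all genes. The summed adipocyte markers of those 3 samples were 6703, 9182 and 1871, against 241 to 571 in the other 4, and the summed macrophage markers were 18975, 23663 and 4303, against 5669 to 14099. Thus the adipocyte sums ran opposite to Fos in this group, and the macrophage sums did so for samples 2 and 5 and not for sample 7. Adipocyte markers were not alone in this. Summed endothelial markers were 7623, 6128 and 4506 in those 3 samples, against 3298 to 4458 in the other 4, a narrow gap for sample 7. Red cell marker sums were highest in samples 2 and 5 (50364 and 54105) but not in sample 7 (26968).

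Over all 7 arrays of a group the adipocyte sums had medians of 1185 in resting wild type, 1778 in contracted wild type, 1541 in resting knockout and 571 in contracted knockout, and 0 of the 6 measured markers were called in any comparison. Without the 6 arrays with a sum over 3000, the difference between contracted knockout and contracted wild type was 2.92 for Fos (limma adjusted p = 0.000137), 1.83 for Atf3 (0.000281), 2.09 for Junb (0.0133) and 0.80 for Fosb (0.0175). The arrays left out include contracted knockout samples 2 and 5, the lowest in that group for Fos, Junb and Atf3, and contracted wild-type sample 4, among the highest there for Fos and Atf3, so a larger difference follows from leaving them out, and the part of adipocyte RNA was not tested. On contraction of knockout muscle Fos was then called without a block (2.41, limma adjusted p = 0.00894), and at rest Atf3 was called between genotypes (1.32, limma adjusted p = 0.00775). That choice of arrays was made after the data had been seen.

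Macrophage markers had a median log2 difference between knockout and wild type of 0.53 at rest and 0.57 after contraction, and 1 of the 9 measured, Mrc1, was called after contraction (0.90, SE 0.26, limma adjusted p = 0.0301). Their sums ran from 3598 to 8315 in resting wild type, 3316 to 11952 in contracted wild type, 4989 to 16477 in resting knockout and 4303 to 23663 in contracted knockout. Of the 8 measured fibroblast markers, 1, Lum, was called after contraction (1.12, SE 0.31, limma adjusted p = 0.0242). Of the 4 measured satellite cell markers, 1, Itga7, was called at rest (0.58, SE 0.16, limma adjusted p = 0.0424) and after contraction (0.56, SE 0.16, limma adjusted p = 0.0325), all 4 were above 0 in both states, and their median was 0.34 at rest and 0.45 after contraction. Their sums ran from 943 to 1547 in resting wild type, 1344 to 1958 in contracted wild type, 1410 to 2264 in resting knockout and 1225 to 2756 in contracted knockout. Beside these single calls per list, 3.75% of all genes were called between genotypes at rest and 8.87% after contraction. The part of macrophages, fibroblasts and satellite cells in the higher Fos, Atf3 and Fosb of knockout muscle was not tested.

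**Figure D5:**
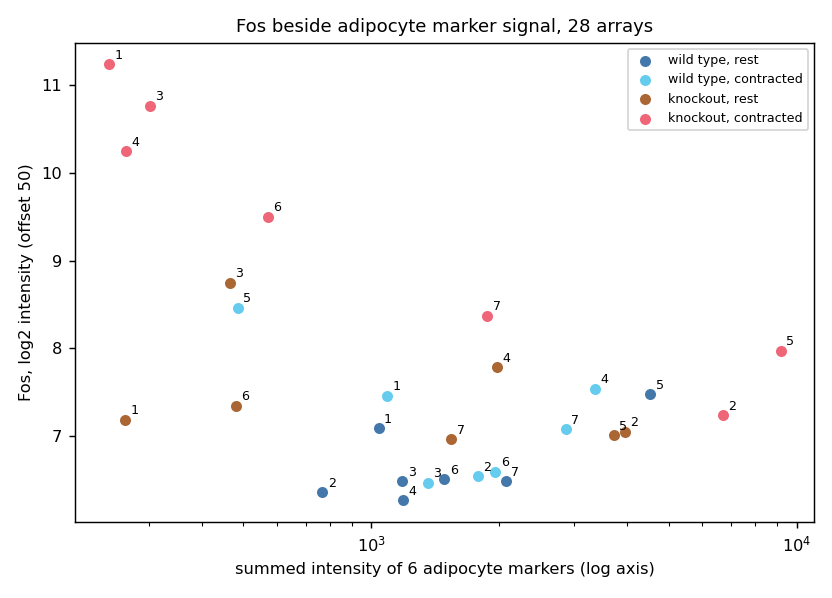
Log2 intensity of Fos (offset 50) against the summed intensity of 6 adipocyte markers (log axis) on 28 arrays, labelled by replicate number. Contracted knockout samples 1, 3, 4 and 6 lie at the upper left with sums of 241 to 571, and samples 2, 5 and 7 lie lower with sums of 1871 to 9182.

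The genes nearest in pattern to each member were taken by Pearson r of log2 values over the 28 arrays, as a description with no test, since arrays share group, tissue composition and normalisation. Fos was nearest to Arid5a, an RNA-binding regulator of cytokine transcripts (r = 0.936), Rrad, a small GTP-binding inhibitor of calcium channels (r = 0.923), and Ier3, an immediate-early survival gene (r = 0.909). Fosb was nearest to Adamts4, a secreted protease (r = 0.889), followed by Fos (0.866) and Slc10a6 (0.821). Junb was nearest to Fos (0.875), Zfp36l1 (0.816), which encodes a protein that destabilises AU-rich transcripts, and Rrad (0.813). Atf3 was nearest to Hspa1a, the inducible heat shock protein (0.933), Srxn1, an antioxidant enzyme (0.914), and Fos (0.905).

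No member was among the 3 genes nearest Jund, Jun or Fosl1. Jund was nearest to Src (0.942), Pym1 (0.911) and Itga5 (0.902), and its r with Fos was 0.525. Jun was nearest to Fam166b (0.80), Rai2 (0.79) and Clec1a (0.79), and its r with Jund was -0.781 and with Fos -0.444. Fosl1 had no neighbour above Rom1 at 0.703, with Tmem19 and Mfsd7a at 0.694.

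Other genes of the pathway were taken from lists, which were chosen with earlier results of these data known. The shares called in them are therefore a description and no independent support. Of 34 relatives of the basic leucine zipper class, 22 were measured, and in contracted muscle 0 were called higher and 1 lower in knockout, a share no greater than the 8.87% of all genes called. That gene was Bach1, a haem-regulated repressor, which fell by 0.73 (log2 difference, SE 0.22, limma adjusted p = 0.034) and was also lower at rest, where it fell by 0.81 (SE 0.22, limma adjusted p = 0.0352). The median difference of the 22 was -0.04 in contracted muscle. Of 37 upstream kinases and transcription factors, 21 were measured and 0 were called in contracted muscle, and at rest 1, Map2k3, a kinase that activates p38, was higher in knockout (0.47, SE 0.12, limma adjusted p = 0.03).

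Of 50 other immediate-early and stress-response genes, 39 were measured, and in contracted muscle 9 were higher and 1 lower in knockout, beside 8.87% of all genes called and 4.54% called higher. Rrad was higher by 3.25 (SE 0.66, limma adjusted p = 0.00349), Gadd45a, a growth arrest and DNA damage gene, by 1.57 (SE 0.36, limma adjusted p = 0.00858) and Ier3 by 1.24 (SE 0.28, limma adjusted p = 0.00639). Nr4a3, a nuclear receptor induced by exercise, went the other way and fell by 0.79 (SE 0.15, limma adjusted p = 0.00219). The median of the 39 was 0.37, beside -0.01 for all genes. At rest 1 of the 39 was called, Gadd45a (1.30, SE 0.36, limma adjusted p = 0.042).

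On contraction of knockout muscle 0 of the 39 were called without the block and 8 rose with it, where 0.632% of all genes were called higher. Among them were Egr1, a zinc-finger immediate-early factor (1.66, limma adjusted p = 0.0118), Socs3, a cytokine signalling inhibitor (1.99, limma adjusted p = 0.0118), Rrad (1.95, limma adjusted p = 0.0118) and Zfp36, an RNA-destabilising protein (1.18, limma adjusted p = 0.0199). The median of the 39 was 0.25 in knockout and 0.09 in wild type, where 0 were called.

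Of 20 genes known as AP-1 targets, 15 were measured, and 3 were higher and 0 lower in contracted knockout muscle, beside 4.54% of all genes called higher. Timp1, a metalloprotease inhibitor, was higher by 2.82 (SE 0.47, limma adjusted p = 0.00119), Mt2, a metallothionein, by 0.95 (SE 0.26, limma adjusted p = 0.0196) and Cd44, a hyaluronan receptor, by 0.74 (SE 0.20, limma adjusted p = 0.0196). Timp1 was also higher at rest, by 2.22 (SE 0.47, limma adjusted p = 0.00859), where Fos was not called. With the block, 4 of the 15 rose on contraction of knockout muscle, beside 0.632% of all genes, namely Mt2 (0.95, limma adjusted p = 0.0222), Hmox1, haem oxygenase (0.55, limma adjusted p = 0.0222), Mt1 (0.63, limma adjusted p = 0.0236) and Cd44 (0.43, limma adjusted p = 0.0397). The median of the 15 was 0.36 in contracted muscle and 0.40 at rest. Several of these genes answer to other factors too, and a level of an AP-1 transcript is not a measure of AP-1 binding.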

How the data were processed

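Total RNA of 28 muscle samples was extracted with TRIZOL, amplified by T7 transcription and labelled with biotin, per the labels' protocols. The intensity values deposited by the authors cover 25697 probes on a linear scale from -36.1 to 50215, with 27.2% below 0, so background had been subtracted, and by their values they were quantile-normalized between arrays. The submitters' processing notes list R 3.1.2, limma 3.1 and lumi 3.0 without a role. A deposited table of non-normalized intensities gives a detection p-value per probe, per the file headers. Of its 28 intensity columns, 7 could be matched to samples by name, and the other 21 were not used. Mean non-normalized intensity on those 7 arrays ran from 200.9 to 445.6. Precision is limited by the number of arrays, and the median SE of a log2 difference between genotypes after contraction was 0.13.

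The deposited intensities were corrected with normexp (offset 50) and set on a log2 scale. Probes over 24, close to the median intensity of 24.5 at a detection p-value of 0.05, on at least 7 arrays were kept (11723), and a gene was represented by its brightest probe (8389 genes). The annotation table gave 23978 probes 1 symbol, 0 several and 1719 none. Means of the 4 groups were fitted to 28 arrays with limma 3.58.1 in R 4.3.3 (lmFit, eBayes), with Benjamini-Hochberg adjustment over all genes of a comparison and calls at an adjusted p under 0.05. The fit was tested on simulated data. Exact permutations used the 3432 splits of 7 against 7, whose smallest p is 0.000583, and correlations were permuted 100000 times within groups, two-sided.

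Samples were grouped by their titles. Deviations from the group means correlated over 0.1 at equal number in 7 of 7 knockout pairs and in 5 of 7 wild-type pairs (-0.0382 to 0.55). The number was therefore used as a pair in knockout, by this criterion and not by the labels. Samples of unequal number were not correlated for reference, so the criterion cannot show that equal numbers share an animal. The number was fitted as a fixed block within genotypes, with a spread shared by both, and as a random block between them (correlation 0.413). The genes named are the members, Stk11, up to 4 called genes with the smallest p per list and comparison and the 3 genes nearest each member. The members and lists were chosen with earlier results of these data known. Alternatives covered the offset, a floor, the dim limit, the probes, the spread, the arrays and the block. The files used carry no slide or scan date.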

Additional observations from a re-analysis of the deposited data

Results flagged for a closer look

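Among the 28 sets of 7 arrays examined (7 genes in 4 groups), 1 stood out by Dixon's criterion for a sample far from the others. Jund in resting wild-type sample 2 was at a log2 intensity of 6.26, below the nearest other array at 6.86, and this gap took up 0.569 of the group's whole range, just past the critical value. Its intensity was -0.0583, below the limit of 24. Chance flags about 1 in 20 such sets.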

How the results depend on the processing

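No result changed direction past the threshold in any alternative. In contracted muscle the count of AP-1 genes higher in knockout, 3 of 7 with Fosb, became 1 when a probe had to exceed 24 on all 28 arrays (only Jun, Junb and Atf3 could then be tested), 1 when only the contracted arrays were fitted, 2 without the lymphocyte-high arrays, 2 with a dim limit of 45, 4 without the adipocyte-high arrays, 4 with the replicate block and 5 with array weights, and ran from 3 to 5 when each array was left out in turn. At rest the count, 0, became 1 (Atf3) with a normexp offset of 16, a floor at 24, array weights, only the resting arrays, the replicate block, and without the adipocyte-high arrays, and ran from 0 to 1 over the left-out arrays. On contraction of knockout muscle the count, 0, became 1 with a floor at 24 (Fosb, limma adjusted p = 0.04999), 2 with array weights (Fos and Fosb), 4 with the replicate block and 1 without the adipocyte-high arrays, and ran from 0 to 1 over the left-out arrays. On contraction of wild-type muscle and for the difference of the responses it stayed at 0 in every alternative run, leaving out each array (0 to 0) and the replicate block included; the block is not supported as a pairing in wild type. Atf3 in the difference of the responses was at 0.25 and at -0.13 with a floor at 24, never called. The count of all genes differing in contracted muscle was 744, but 2615 with array weights, 356 without the lymphocyte-high arrays and 409 to 1702 over the left-out arrays. At rest it was 315, but 951 with array weights, 207 with no dim filter, 34 without the lymphocyte-high arrays and 109 to 676 over the left-out arrays. On contraction of knockout muscle it was 1, but 57 with the replicate block, 46 with array weights, 23 without the adipocyte-high arrays, 9 without the lymphocyte-high arrays, 4 with a floor at 24, 0 with only the groups compared and 1 to 8 over the left-out arrays. The alternatives that leave out arrays by their marker sums were chosen after seeing the data, and the cause of these shifts was not tested. Array weights were lowest in contracted knockout for samples 2, 5 and 7, which were also lowest there for Fos, Junb and Atf3. The counts with array weights therefore lean away from those arrays. Signal near the limit of 24 restricts what can be said of Fosb, Fosl1 and Fos in wild type.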
